A study of Mus musculus with 66 samples.

Results

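The genes that build the tight, adherens and desmosomal junctions of the intestinal epithelium were followed across 3 organoid cultures. Members were chosen by gene symbol alone. They are every row of the expression table for a claudin (symbols starting with Cldn), a zonula occludens protein (Tjp), a numbered cadherin (Cdh), desmoglein (Dsg), desmocollin (Dsc) or plakophilin (Pkp), and 14 further symbols, from Ocln, F11r and Epcam to the catenins. The rule found 39 rows of 37 symbols among 9481 transcript rows of 8978 symbols. No measured value entered the rule. Of the 39 rows, 38 had a count above 0 in at least 4 of the 12 RNA libraries and were tested. Ctnna2, the alpha-catenin of neurons, reached no more than 1 count in a library and was not.

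The study grew organoids from the mouse small intestine and changed the medium to shift their cell types. ENR was the regular medium, with EGF, Noggin and R-Spondin-1. CV was ENR with 3 µM of CHIR99021, a GSK3 inhibitor that raises Wnt signaling, and 1 mM of valproic acid, and is labelled as enriched for stem cells. EN was ENR without R-Spondin-1 and is labelled as differentiated. CHIR99021 and valproic acid were given only in CV and only together, so their effects cannot be told apart, also on histone marks. Organoids of all cultures carried a GFP and diphtheria toxin receptor insert at one Lgr5 allele, and CV and EN organoids were kept in their media for different times, so effects of medium and time cannot be told apart. RNA-seq and ATAC-seq, which measures open chromatin, had 4 libraries per culture. The histone marks H3K27ac, H3K4me3 and H3K27me3 had 3 libraries per culture, and the transcription factor Hnf4g had 1. No source used here ties libraries to separate mice or cultures, so p-values measure only the spread between these samples, which may be technical. RNA libraries held 5630951 to 8859744 counts, and 3 counts correspond to 0.361 to 0.642 CPM. CPM are counts relative to library size after TMM scaling, a correction for differences in RNA composition.

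Epithelial cells are joined by a belt of 3 junction types. Tight junctions lie nearest the lumen, where claudins form the barrier and its charge-selective pores, and zonula occludens scaffolds tie them to actin. Below them, adherens junctions couple E-cadherin to actin through catenins, and desmosomes couple desmogleins and desmocollins to keratin through plakophilins, plakoglobin and desmoplakin. In the intestine, claudin-2 is known as a crypt claudin that passes cations and water, and claudin-15 as a small intestinal claudin that passes sodium.

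Sequences from 1 region each of Cldn2, Cldn15, Pkp1, Cldn4 and Epcam are shown first, because the values at these regions are given after the RNA. All are read from the plus strand of mouse build NCBIM37 (mm9), leave out annotated exons, and are at most 300 bases of the deposited region. Searched on both strands were ATCAAAG, a core of TCF/LEF sites, and CAAAGTCCA, a core of HNF4 sites. A search that also allowed 1 differing letter in CAAAGTCCA was chosen after the sequences were seen. Capitals mark a match to ATCAAAG in the Cldn2 sequence and a match with 1 differing letter to CAAAGTCCA in the Cldn15 and Pkp1 sequences. The Cldn2 region was the open region downstream of the gene, chosen after its values were seen, at chrX:136347415-136347714, from 12048 to 12347 bases after the gene start.
Cldn2: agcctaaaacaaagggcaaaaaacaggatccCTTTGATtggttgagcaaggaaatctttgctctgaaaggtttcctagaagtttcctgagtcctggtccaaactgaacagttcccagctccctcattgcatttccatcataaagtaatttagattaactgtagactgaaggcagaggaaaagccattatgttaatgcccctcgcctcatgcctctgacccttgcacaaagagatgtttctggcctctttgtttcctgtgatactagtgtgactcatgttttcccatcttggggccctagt
The Cldn15 region, chosen for its Hnf4g reads, lay within the gene at chr5:137443538-137443713, from 1052 to 1227 bases after the start.
Cldn15: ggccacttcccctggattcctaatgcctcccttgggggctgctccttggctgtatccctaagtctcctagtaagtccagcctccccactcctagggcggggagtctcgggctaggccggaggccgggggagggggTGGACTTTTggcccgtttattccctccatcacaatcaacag
The Pkp1 sequence came from the open region over its start, at chr1:137814871-137815170, from 614 to 913 bases after the start of this minus-strand gene.
Pkp1: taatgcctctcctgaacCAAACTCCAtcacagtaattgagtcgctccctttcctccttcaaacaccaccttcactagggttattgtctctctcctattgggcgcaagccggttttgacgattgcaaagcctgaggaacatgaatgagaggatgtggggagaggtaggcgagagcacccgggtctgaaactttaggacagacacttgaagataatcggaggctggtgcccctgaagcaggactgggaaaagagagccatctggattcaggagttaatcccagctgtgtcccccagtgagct
For Cldn4, also on the minus strand, the bases from 11 to 310 before the start are shown, chr5:135422815-135423114.
Cldn4: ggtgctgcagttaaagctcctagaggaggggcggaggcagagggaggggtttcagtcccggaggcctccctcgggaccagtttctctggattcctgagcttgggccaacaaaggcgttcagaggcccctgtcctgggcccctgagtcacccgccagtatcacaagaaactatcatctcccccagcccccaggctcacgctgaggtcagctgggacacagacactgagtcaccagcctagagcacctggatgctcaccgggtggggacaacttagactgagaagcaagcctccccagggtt
For Epcam, the 229 bases before the start are shown, chr17:88035090-88035318.
Epcam: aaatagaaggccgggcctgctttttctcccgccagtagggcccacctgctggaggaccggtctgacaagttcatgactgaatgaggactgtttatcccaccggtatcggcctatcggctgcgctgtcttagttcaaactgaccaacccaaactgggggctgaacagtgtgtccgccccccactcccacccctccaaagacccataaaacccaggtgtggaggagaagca
No sequence held CAAAGTCCA itself, and the Cldn4 and Epcam sequences held no match of any kind. Among all regions cut to the same length, ATCAAAG was found in 5.57% of windows of the Cldn2 length. A match with at most 1 differing letter to CAAAGTCCA was found in 12.2% of windows of the Cldn15 length and in 16.8% of those of the Pkp1 length. Such matches describe letters only, and a missing match says nothing about the factor.

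Of the 10 junction rows that passed the test with a change of at least 2-fold between EN and CV, 7 were claudins, and the others were Pkp1, Pkp3 and Marveld3. Between EN and CV, 30 of the 38 junction rows passed the test (edgeR, adjusted p under 0.01), 23 higher and 7 lower in EN. That share, 78.95%, stood beside 76.4% of all 9288 tested rows, of which 35.2% were higher and 41.2% lower. With a change of at least 2-fold as well, 6 junction rows were higher and 4 lower, 26.32% against 35.4% of all rows (15.2% higher and 20.1% lower). The median log2 change was 0.35 over the junction rows and -0.08 over all rows, and the median absolute change was 0.58 against 0.72. Of the 9 claudin rows, 6 rose and 3 fell, 7 of them by at least 2-fold. Of the 7 scaffold rows 6 rose and none fell, and of the 5 tight junction membrane rows 4 rose and none fell. Cadherins and catenins split into 2 higher, 1 lower and 3 that did not pass, and the 10 desmosomal rows into 5 higher, 2 lower and 3 that did not pass.

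**Figure D1:**
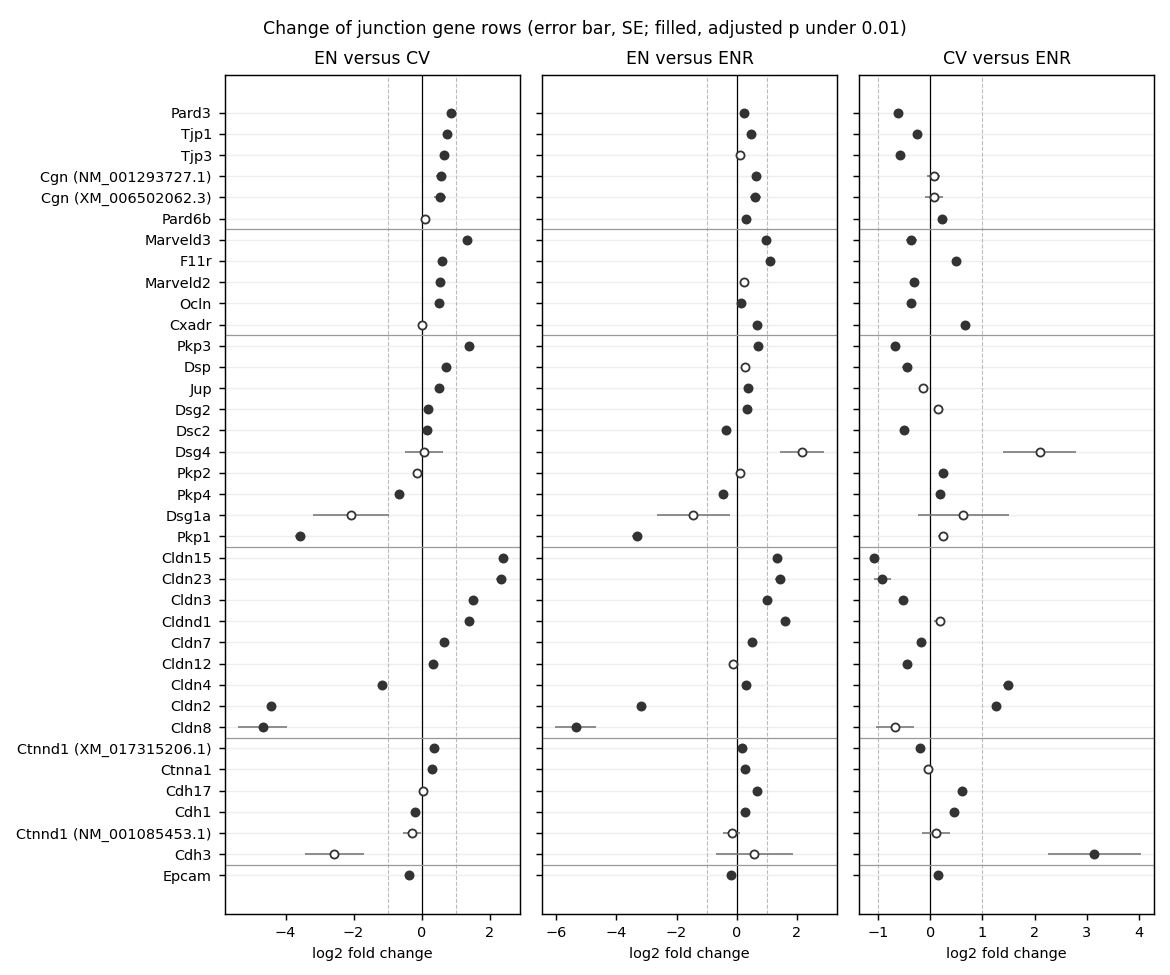
Log2 fold change of the tested junction rows, all but 1, in the 3 comparisons (x axis, log2 scale; bar, SE; 4 libraries per culture), grouped by role and ordered by EN versus CV within a role. Filled points passed an adjusted p of 0.01, and dashed lines mark a 2-fold change. In EN versus CV the points run from Cldn8 at -4.68 to Cldn15 at 2.40. The points of Cldn8, Cdh3, Dsg1a and Dsg4 rest on few counts.

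The scale of the comparison sets how many junction rows count as higher. Scaled to the spike-in RNA, 6 rows were higher and 10 lower between EN and CV. The study added the spike-ins to a fixed amount of total RNA, so this scaling is not per cell. On TPM, 14 were higher and 13 lower, and on the deposited mRNA copies per cell 26 were higher and 3 lower. These scales moved the median of all rows to -0.49, -0.34 and 0.62, so the sign of a change smaller than such a shift depends on the scale. Measured against the median of all rows, 27 of the 38 junction rows lay above it after TMM or spike-in scaling, and 28 did on TPM or on copies.

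Cldn2, the crypt claudin, showed the largest fall among well-counted junction genes. Its level was 737, 759, 749.9 and 736 CPM in the 4 CV libraries, 307, 313, 317 and 308 CPM in ENR, and 32.0, 34.3, 32.3 and 39.5 CPM in EN. The cultures did not overlap, and the order was CV, ENR, EN. EN was 21.6-fold below CV, a log2 change of -4.43 (SE 0.052, adjusted p = 5.5e-18), and 9.0-fold below ENR. CV was 2.40-fold above ENR.

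Cldn15, the sodium-passing claudin, ran in the opposite order. It stood at 205, 197, 198 and 206 CPM in CV, at 429, 416, 424 and 424 CPM in ENR, and at 1014, 1074, 1127 and 1045 CPM in EN. The cultures did not overlap here either. The log2 change from CV to EN was 2.40 (SE 0.037, adjusted p = 5.5e-17), a 5.28-fold rise, and that from ENR to EN was 1.33 (SE 0.036). Direction and call of both genes held in all 3 comparisons under each of the 22 alternatives run.

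Cldn3, a barrier-forming claudin, followed Cldn15 with smaller steps. It was at 135, 132, 129.5 and 151 in CV, 190.2, 195, 200.1 and 203 in ENR, and 392, 383, 405 and 382 CPM in EN, without overlap. The log2 change from CV to EN was 1.51 (SE 0.046, adjusted p = 8.7e-14). Cldn23, a little-studied claudin, rose from 4.72, 7.21, 4.51 and 8.55 CPM in CV over 11.1, 13.4, 10.8 and 12.2 CPM in ENR to 32.0, 30.4, 33.9 and 30.9 CPM in EN, a log2 change of 2.34 (SE 0.16, adjusted p = 1.4e-09). All 4 EN libraries lay above all others. Cldn7, which binds EpCAM, rose less, from 216, 218, 225 and 242 CPM in CV over 255, 249, 248 and 267 CPM in ENR to 366, 345, 370.0 and 347 CPM in EN. Its log2 change from CV to EN was 0.66 (SE 0.043, adjusted p = 8.7e-10).

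Cldn4 broke the graded order. Its levels were 242, 265, 246 and 256 in CV, 94.1, 98.8, 90.9 and 78.5 in ENR, and 130.4, 111, 119 and 88.3 CPM in EN. CV lay above both other cultures, and ENR and EN overlapped. The log2 change was -1.17 from CV to EN (SE 0.092, adjusted p = 9.2e-09) and 1.48 from ENR to CV (SE 0.092). The difference of 0.31 between EN and ENR passed the test by a narrow margin (adjusted p = 0.00896) and lost the call when any of 10 libraries was left out. Cldn3 and Cldn4 have starts 39.28 kb apart on chromosome 5, on opposite strands, and changed in opposite directions between CV and EN.

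Cldnd1, a claudin-like membrane protein, was at 22.0, 23.0, 22.3 and 25.8 CPM in CV and at 20.5, 19.0, 18.5 and 23.5 CPM in ENR, which overlapped. In EN it was at 64.3, 50.1, 64.2 and 65.9 CPM, above both, with a log2 change of 1.40 from CV (SE 0.095, adjusted p = 1.6e-09). Cldn8, a barrier claudin of tight epithelia, was barely detected. It had 5 to 18 counts per library in CV, 12 to 19 in ENR, and 0 or 1 in EN, where a single count was found over 4 libraries. Summed over libraries, the ratio of CV to EN was 36.9, with a 95% counting interval from 6.30 to 1489. The test passed for EN against CV (adjusted p = 2.2e-05) and against ENR (adjusted p = 2.8e-06). Cldn12, linked to calcium passage, changed little, with a log2 change of 0.33 (SE 0.050) from CV to EN and 92.4 CPM on average in EN.

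**Figure D2:**
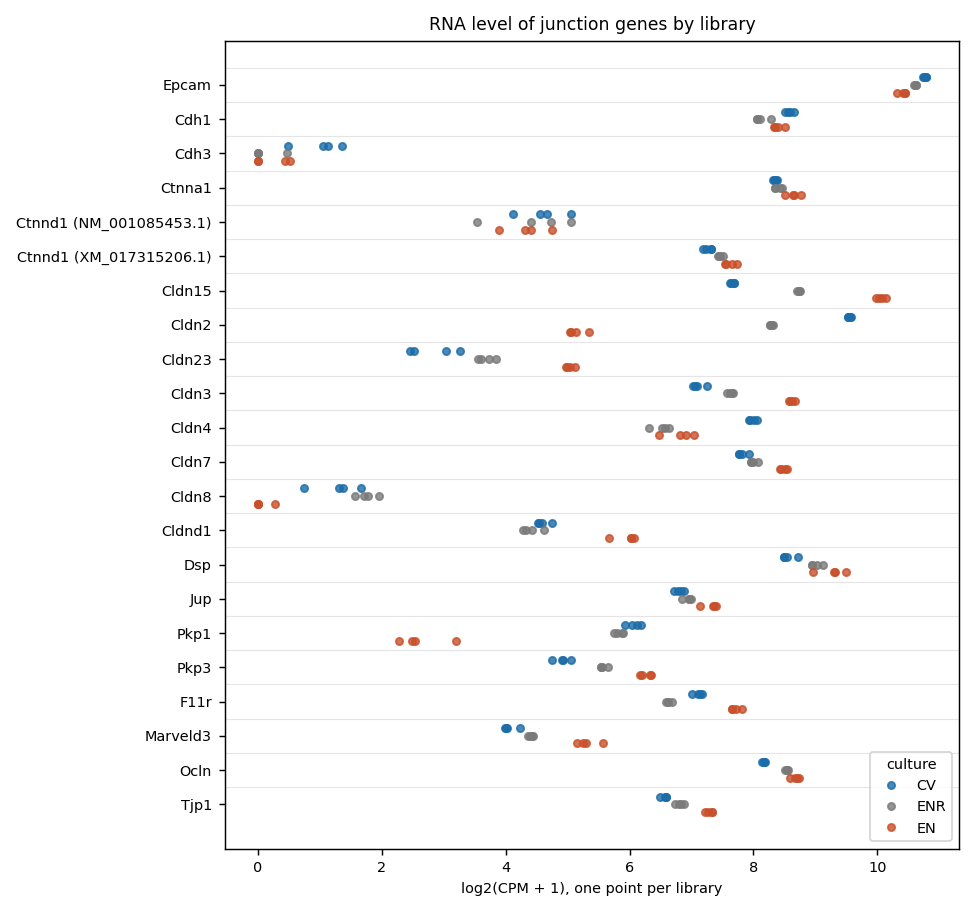
RNA level of the 22 junction rows described library by library (x axis, log2(CPM + 1); 1 point per library, 4 per culture, colored by culture). Cldn2, Cldn15, Cldn3, Cldn23 and Pkp3 separate into 3 groups without overlap. Pkp1 sets EN far apart, while its CV and ENR points lie close together without overlap and did not differ in the test. Cldn4 sets CV apart from ENR and EN, and Cldnd1 sets EN apart from CV and ENR.

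On a per-length scale, the make-up of the claudins differed between the cultures. Over the 8 claudins without Cldnd1, summed TPM averaged 1388 in CV, 1211 in ENR and 1804 in EN. Cldn2 made up 29.2% ± 0.94 of that sum in CV, 12.5% ± 0.22 in ENR and 0.835% ± 0.10 in EN (SD, n = 4). Cldn15 made up 13.5% ± 0.37, 29.1% ± 0.40 and 43.9% ± 1.17. Both sets of shares ran in order without overlap. Between EN and CV each difference gave p = 0.0286, the smallest p that an exact two-sided permutation test of 4 against 4 libraries can give (adjusted p = 0.0343 over the 12 shares tested). Cldn4 held 17.4% in CV, 6.43% in ENR and 4.76% in EN, and Cldn3 14.3%, 21.3% and 25.2%. Cldn7 held 22.7% in CV, 26.3% in ENR and 22.1% in EN. Its ENR share lay above both others (exact permutation p = 0.0286 for each), while the difference between CV and EN did not pass (exact permutation p = 0.257).

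**Figure D3:**
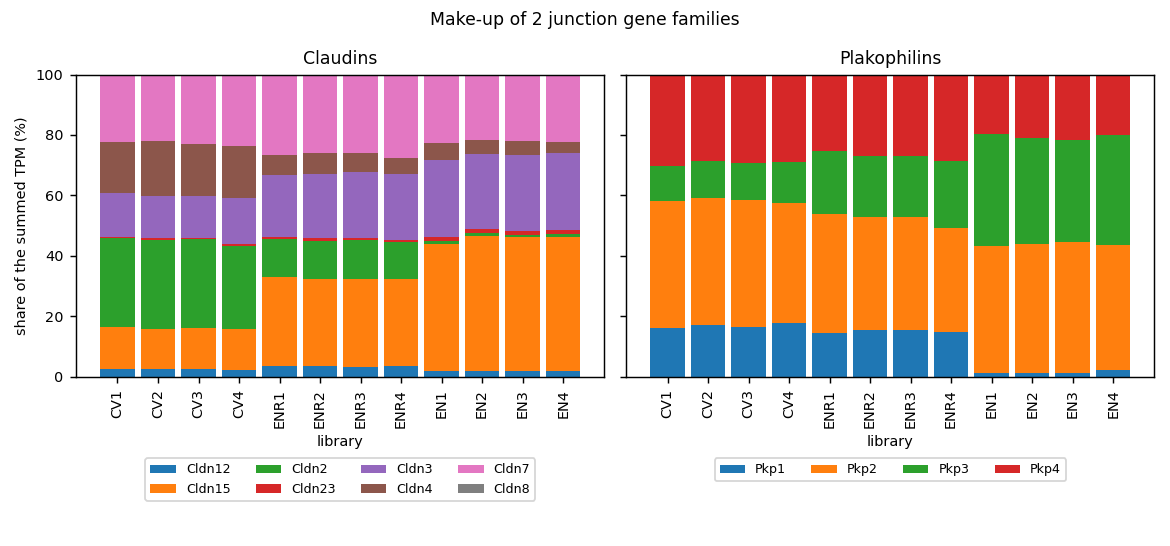
Share of summed TPM (y axis, percent) that each claudin (left, without Cldnd1) and each plakophilin (right) takes in each of the 12 RNA libraries. Cldn2 shrinks from 29.2% in CV to 0.835% in EN while Cldn15 grows from 13.5% to 43.9%, and Pkp3 takes 35.6% of plakophilin TPM in EN against 12.4% in CV.

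Of the tight junction membrane proteins other than claudins, 4 of 5 rose from CV to EN and Cxadr did not pass. Occludin (Ocln) was at 282, 287, 287 and 290.0 in CV, 366, 372, 376 and 371 in ENR, and 385, 425, 417 and 407 CPM in EN. CV lay below both other cultures, and the log2 change from CV to EN was 0.51 (SE 0.034, adjusted p = 1.4e-09). The step from ENR to EN was 0.14 and turned to -0.39 with spike-in scaling. F11r, the junctional adhesion molecule A, was lowest in ENR, with 95.4, 102, 97.5 and 97.9 CPM there, 143, 140.4, 137 and 128 CPM in CV and 209, 199.6, 224 and 199.7 CPM in EN. None of the cultures overlapped, and EN exceeded ENR by a log2 change of 1.08 (SE 0.048, adjusted p = 8.8e-12). Marveld3, a MARVEL-domain protein like occludin, reached 38.3, 37.0, 34.6 and 46.8 CPM in EN, against 17.8, 15.2, 15.1 and 14.8 CPM in CV and 19.6 to 20.6 CPM in ENR. Its log2 change from CV to EN was 1.32 (SE 0.096, adjusted p = 3.6e-09). Marveld2, or tricellulin, which seals the corners where 3 cells meet, rose by 0.53 (SE 0.079). Cxadr, the coxsackievirus and adenovirus receptor, shared the low level of F11r in ENR, with means of 388 in CV, 245 in ENR and 391 CPM in EN, and the difference between CV and EN did not pass (adjusted p = 0.82).

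Scaffolds of the tight junction moved by less than 2-fold in every comparison. Tjp1, which encodes ZO-1, was at 95.1, 94.8, 88.8 and 94.2 in CV, 111, 105, 117 and 112 in ENR, and 160.1, 154, 148 and 160.2 CPM in EN. The cultures did not overlap, and the log2 change from CV to EN was 0.74 (SE 0.043, adjusted p = 2.6e-10). Tjp3, for ZO-3, rose by 0.66 from CV to EN but differed from ENR by 0.09, which did not pass. Pard3, a polarity scaffold, rose by 0.85 (SE 0.060). Pard6b, its partner, was at 60.6 CPM in CV and 64.5 in EN (adjusted p = 0.15). Cgn, for cingulin, had 2 transcript rows that rose by 0.56 (SE 0.12) and 0.54 (SE 0.17), and both are uncertain because kallisto can split shared reads between transcripts of 1 gene.

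Outside the desmosome, the tested cadherins and catenins changed by less than 2-fold between CV and EN, apart from Cdh3, which did not pass. E-cadherin (Cdh1) was at 364, 384, 375 and 404 in CV, 264, 276, 267 and 310.0 in ENR, and 338, 323, 321 and 365 CPM in EN. CV and EN overlapped. The log2 change between them was -0.18 (SE 0.055, adjusted p = 0.0076), and that call was lost with DESeq2 and without any 1 of 7 libraries, while on copies per cell the change turned to 0.65. Cdh17, the liver-intestine cadherin, was at 1639 to 1906 CPM in CV, 1135 to 1222 CPM in ENR and 1799 to 1956 CPM in EN, so that ENR lay below both. Its EN level exceeded ENR by a log2 change of 0.66 (SE 0.045, adjusted p = 1.6e-09). Cdh3, or P-cadherin, lies 92.46 kb from Cdh1 on chromosome 8 and was near the limit of detection, with 33 counts over the CV libraries, 3 over ENR and 4 over EN. The ratio of CV to ENR was 10.2, with a 95% counting interval from 3.19 to 51.9.

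Alpha-catenin (Ctnna1), which carries E-cadherin's link to actin, was at 319, 329.8, 322 and 331 in CV, 326, 325, 345 and 349.8 in ENR, and 404, 399, 365 and 436 CPM in EN. EN lay above both, while CV and ENR overlapped. The log2 change of 0.30 from CV to EN (SE 0.047, adjusted p = 2.5e-05) turned to -0.019 on TPM and -0.11 with spike-in scaling. For p120-catenin (Ctnnd1), which holds cadherins at the membrane, the main row was at 144, 159, 158 and 150.2 in CV, 172, 173, 181 and 176 in ENR, and 212, 185, 202 and 188 CPM in EN. EN lay above CV with a log2 change of 0.36 (SE 0.047), which turned to -0.048 with spike-in scaling. A minor Ctnnd1 row averaged 23.8, 22.2 and 19.6 CPM and passed no test, and the split between the rows is uncertain.

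Desmosomes showed one strong fall. Pkp1, a plakophilin best known from stratified epithelia, had CV levels of 59.7, 68.9, 64.9 and 71.4 CPM and ENR levels of 52.5, 58.6, 57.6 and 54.7 CPM. In EN it was at 4.82, 3.85, 4.64 and 8.21 CPM, below every other library. The log2 change from CV to EN was -3.58 (SE 0.14, adjusted p = 1.2e-12), a 12-fold fall, and from ENR to EN it was -3.33 (SE 0.14). CV lay above ENR by a narrow gap, and that difference did not pass (edgeR, log2 change 0.25, adjusted p = 0.030).

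Pkp3 rose where Pkp1 fell, from 26.0, 29.2, 28.9 and 32.4 CPM in CV over 46.2, 45.5, 45.3 and 49.3 CPM in ENR to 80.8, 72.4, 71.0 and 79.5 CPM in EN. The cultures did not overlap, and the log2 change from CV to EN was 1.38 (SE 0.069, adjusted p = 3.5e-11). Pkp2, the plakophilin with the largest share, was at 99.2 CPM in CV and 91.2 in EN and did not pass (adjusted p = 0.023). Pkp4 fell, with a log2 change of -0.66 (SE 0.049). In shares of plakophilin TPM, which summed to 138.5, 117.7 and 100.5, Pkp1 held 16.7% ± 0.79 in CV, 14.9% ± 0.52 in ENR and 1.5% ± 0.50 in EN (SD, n = 4). Pkp3 held 12.4% ± 0.81, 20.9% ± 0.98 and 35.6% ± 1.61. Pkp2 held 41.6%, 37.2% and 42.3%, with ENR below both others (exact permutation p = 0.0286 for each) and no passing difference between CV and EN (exact permutation p = 0.429).

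Desmoplakin (Dsp), which anchors keratin, was at 359, 358, 373 and 420.3 in CV, 489.7, 494, 523 and 556 in ENR, and 634, 629, 498 and 717 CPM in EN. EN lay above CV, with a log2 change of 0.71 (SE 0.088, adjusted p = 1.8e-06), and overlapped ENR (adjusted p = 0.0115). Plakoglobin (Jup) was at 105, 109, 112 and 117 in CV, 114, 123, 126 and 124 in ENR, and 167, 140.2, 163 and 163 CPM in EN. EN lay above both, and the log2 change from CV was 0.52 (SE 0.056, adjusted p = 3.9e-07). Among the desmosomal cadherins, Dsg2 rose by 0.19 from CV to EN. Dsc2 was highest in ENR, with means of 235 in CV, 332.5 in ENR and 261 CPM in EN. Its CV and EN libraries overlapped, with a log2 change of 0.15 from CV to EN. From ENR to EN the change was -0.35 (edgeR, adjusted p = 4.5e-06), without overlap. Dsg4 and Dsg1a, desmogleins of skin and hair, had at most 13 and 4 counts in a library and passed no test.

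Epcam, an adhesion molecule that steadies claudins at the membrane, had the highest TPM of all junction genes in each culture. It stood at 1723, 1760, 1766 and 1706 in CV, 1573, 1553, 1584 and 1546 in ENR, and 1361, 1393, 1271 and 1393 CPM in EN. The cultures did not overlap. The log2 change from CV to EN was -0.36 (SE 0.033, adjusted p = 6.1e-08), and on copies per cell it turned to 0.52. In TPM, Epcam averaged 1456 in CV, 1175 in ENR and 909 in EN. Cldn15 moved from the seventh highest junction gene in CV to the third in ENR and the second in EN, with 187, 352 and 792 TPM.

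In ENR, Cldn2, Cldn15, Cldn3, Cldn23 and Cldn7 lay between their levels in CV and EN, whereas Cldn4 had its lowest mean there. Between EN and ENR, 28 of 38 junction rows passed, 22 higher and 6 lower in EN, against 72.7% of all rows (35.5% higher and 37.2% lower). At 2-fold or more, Cldn15, Cldn23, Cldnd1 and F11r were higher and Cldn2, Cldn8 and Pkp1 lower, 18.42% against 30.1% (13.1% higher and 17.0% lower). Between CV and ENR, 27 passed, 11 higher and 16 lower in CV, against 60.0% of all rows (30.2% higher and 29.8% lower), and 4 of them by at least 2-fold, 10.53% against 12.9% (6.74% higher and 6.17% lower). Those 4 were Cldn2, Cldn4 and Cdh3, higher in CV, and Cldn15, lower. Median log2 changes over junction rows were 0.29 and 0.01, beside -0.01 and -0.01 over all rows. With spike-in scaling, the counts became 4 higher and 9 lower for EN against ENR, and 5 and 8 for CV against ENR. On TPM they were 13 and 7, and 13 and 10, and on copies per cell 30 and 3, and 3 and 1. The comparisons share libraries, so they are not independent of each other. In 11 junction rows, among them Cldn15, Cldn3, Cldn23, Cldn7, Pkp3, Ocln and Tjp1, the libraries rose from CV over ENR to EN without overlap, 28.95% beside 11.6% of all tested rows. In Cldn2, Pkp1, Pkp4 and Epcam they fell in that order, 10.53% beside 11.1%, though Pkp1 did not pass between CV and ENR. These orders depend on the scale. With spike-in scaling, an alternative chosen after seeing the data, only Cldn15 and Cldn23 rose in that order without overlap, 5.26% beside 4.05% of all rows. Only Cldn2 fell, 2.63% beside 6.61%. The spike-in share of counts itself varied within a culture, from 0.848% in EN replicate 1 to 1.36% in EN replicate 2. The part of that spread in these overlaps was not tested.

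Markers of other cell types moved with the cultures. The summed TPM of 10 enterocyte markers was 19990 to 21090 in CV, 10780 to 12470 in ENR and 59120 to 66270 in EN, and all 10 rose from CV to EN. The 7 stem cell markers summed to 302 to 337 in CV, 931 to 1019 in ENR and 18.4 to 21.2 in EN, and all 7 fell from CV to EN. The higher sum in ENR rested mostly on Olfm4, at 10.9 CPM in CV and 1229 in ENR. Between CV and ENR, 2 of the 7 passed as higher in CV. These were Cd44, at 147 and 36.1 CPM, and Sox9, at 34.7 and 27.1 CPM. Another 4 passed as lower in CV. Beside Olfm4 they were Lgr5, at 90.1 and 129 CPM, Smoc2, at 304 and 350 CPM, and Axin2, at 69.3 and 80.7 CPM. Of the goblet cell rows, 6 of 6 tested rose, from sums of 1686 to 1807 in CV to 10530 to 12570 in EN. Paneth markers split into 1 higher and 3 lower, and all 5 enteroendocrine markers rose. All 5 rows of proliferation markers fell from CV to EN, with a median log2 change of -4.31. Tuft cell markers split into 2 higher and 1 lower. The 5 endothelial markers had no row in the table. The 3 of 6 immune markers with a row summed to at most 1.53 TPM in a library, and the 6 of 9 fibroblast and muscle markers with a row to at most 19.9 TPM. Only transcripts of quantified proteins were in the table, so a missing row does not show that the RNA was absent. In these bulk samples, fewer cells of a type and less RNA per cell cannot be told apart, and the part of the cell mixture in the junction changes was not tested.

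Junction genes outside the rule moved in both directions. Of 72 tested rows of 60 further junction symbols, 32 were higher and 20 lower in EN than in CV, beside the 76.4% of all rows that passed. Partners of tight junction scaffolds split into 5 higher and 4 lower of 12 rows, polarity complexes into 6 and 3 of 16, and adherens junction partners into 9 and 9 of 26. Median log2 changes of these lists were -0.04, 0.03 and -0.11. Desmosome partners split into 2 and 2 of 6 rows. The protocadherins and linkers that join microvilli to each other rose in 6 of 6 rows, with a median log2 change of 1.28.

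Open chromatin at junction gene starts changed in both directions. Of the 94469 deposited regions, 51 lay within 500 bp of an annotated start of 34 junction symbols, with GENCODE M1 as annotation. The deposited values are read scores that the authors normalised and rounded. Between EN and CV, 23 of the 51 regions passed in ATAC (limma, adjusted p under 0.05), 13 higher and 10 lower, 45.1% beside 35.2% of all regions (19.6% higher and 15.6% lower). Over the regions within 500 bp of any annotated start, here called all start regions, the share was 34.5%. For H3K27ac, a mark of active promoters and enhancers, 19 passed, 17 higher and 2 lower, 37.25% beside 7.03% (5.07% higher and 1.96% lower) and beside 19% of all start regions. None of those 19 calls held when the spread was fitted without a trend on signal or with the replicate number as a block, and 11 and 12 regions passed without EN replicate 3 or 4. For H3K4me3, a promoter mark, 9 of 50 passed, 6 higher and 3 lower, 18% beside 4.9% (2.75% higher and 2.15% lower) and 9.6% of all start regions, with 17 without EN replicate 1, 3 without EN replicate 2, and 1 with the block. For H3K27me3, a Polycomb mark, none passed with limma, 3 had an unadjusted p under 0.05, and 0.528% of all regions passed. Summed over all regions, ATAC scores of EN exceeded those of CV in every library, with 1993594 to 2109261 against 1752385 to 1840402. H3K27ac sums did too, with 1622103 to 1760511 against 1345873 to 1406651, and H3K4me3 sums, with 984840 to 1100967 against 817265 to 940440. The part of these sums in the counts above was not tested.

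Between EN and ENR, 21 regions passed in ATAC, 8 higher and 13 lower, beside 24.0% of all regions (11.6% higher and 12.5% lower). In H3K27ac none passed with limma, 10 had an unadjusted p under 0.05, and 1.57% of all regions passed. In H3K4me3, 2 passed beside 6.18%. Between CV and ENR, 11 passed in ATAC, 1 higher and 10 lower in CV, beside 15.8% (5.11% higher and 10.7% lower), and 7 in H3K27ac, all lower in CV, beside 1.83% (0.541% higher and 1.29% lower) and beside 6.82% of all start regions. None of those 7 calls held without the trend or with the replicate block, where no region of the whole table passed. In H3K4me3 none passed with limma, 6 had an unadjusted p under 0.05, and 1.13% of all regions passed. In H3K27me3 none passed in either comparison, beside 0.0127% and 0.74%, with 6 and 4 at an unadjusted p under 0.05.

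At the start of Pkp1, openness and both active marks were lower in EN. The region over it, chr1:137814654-137816029, which holds the printed sequence, had ATAC scores of 54, 67, 47 and 61 in CV, 60, 54, 46 and 46 in ENR, and 18, 23, 19 and 20 in EN. EN lay below all other libraries, with a log2 change from CV of -1.47 (SE 0.15, adjusted p = 9.3e-07). H3K4me3 there was 65, 61 and 61 in CV and 14, 20 and 26 in EN, a log2 change of -1.63 (SE 0.21, adjusted p = 0.0046). H3K27ac averaged 44.0 in CV, 36.7 in ENR and 14.0 in EN (adjusted p = 0.017).

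At Cldn4, the region over the start, chr5:135422708-135423124, had ATAC scores of 31, 41, 40 and 53 in CV, 27, 29, 26 and 28 in ENR, and 4, 12, 12 and 7 in EN. EN lay below ENR there (log2 change -1.65, SE 0.26, adjusted p = 0.00016), although the RNA of Cldn4 in EN was not below that in ENR. The neighbouring region inside the gene fell in all 3 active signals between CV and EN, with H3K4me3 at 28, 24 and 26 in CV and 6, 5 and 10 in EN.

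Cldn2 had 8 regions between 5 kb before and 5 kb after the gene, and 6 of them lost ATAC signal in EN against CV while none gained. The only one at an annotated transcript start, inside the gene, had scores of 5 to 10 in CV and 6 to 18 in EN and did not pass. The largest falls were elsewhere. The region centred at -2731 bp from the gene start had scores of 24, 25, 31 and 37 in CV, 10, 18, 17 and 17 in ENR, and 2, 3, 4 and 6 in EN, a log2 change from CV of -2.72 (SE 0.27, adjusted p = 5.2e-07). The region 7442 bp after the start had 35, 31, 34 and 29 in CV, 22, 24, 27 and 22 in ENR, and 5, 7, 5 and 8 in EN. In both, EN lay below all other libraries. The downstream region whose sequence is printed had 42, 35, 41 and 53 in CV, 41, 36, 54 and 53 in ENR, and 18, 15, 15 and 14 in EN, so that CV and ENR overlapped there while Cldn2 RNA differed between them.

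**Figure D4:**
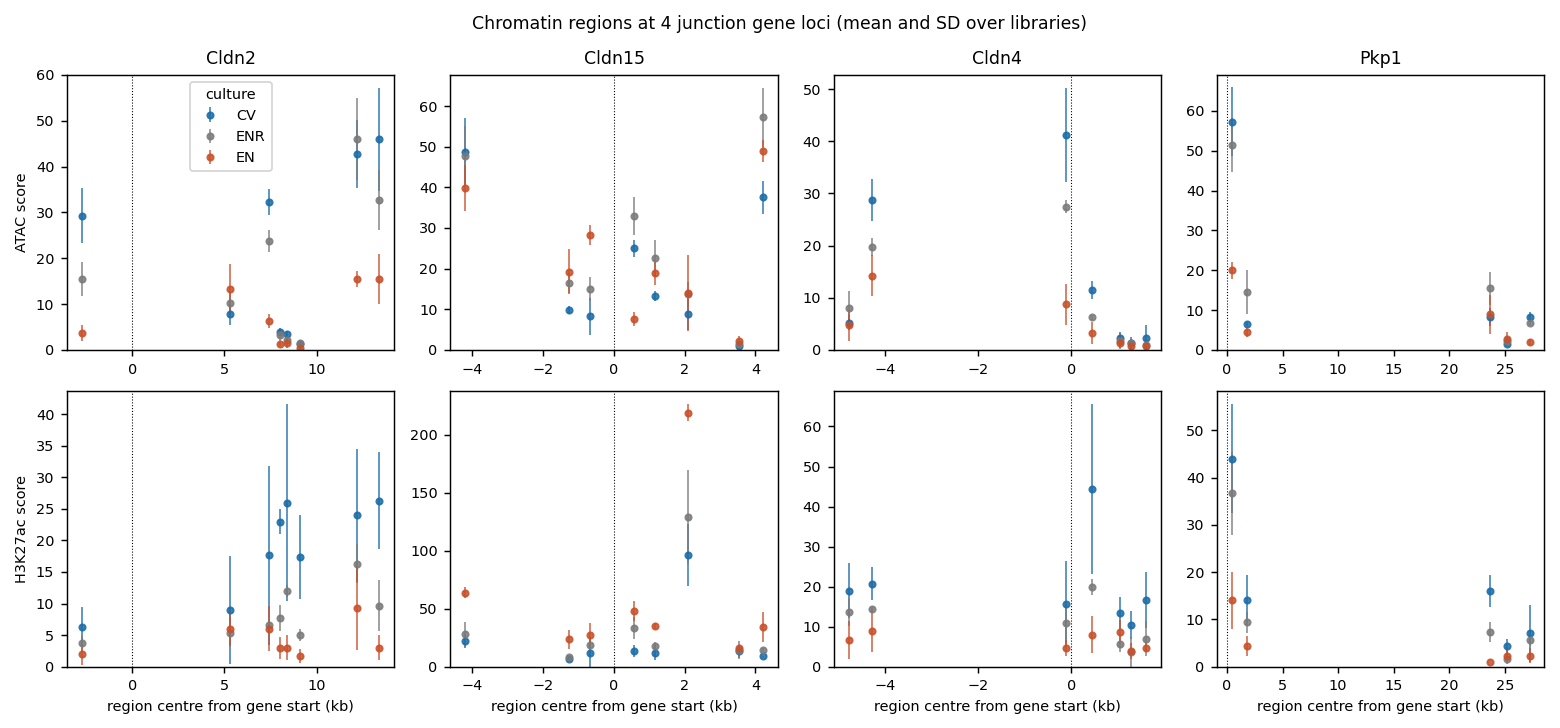
ATAC (top) and H3K27ac (bottom) score of each region at Cldn2, Cldn15, Cldn4 and Pkp1 against the distance of its centre from the gene start (x axis, kb; positive toward the gene; points, mean; bars, SD; 4 ATAC and 3 H3K27ac libraries per culture). Regions at Cldn2, Cldn4 and at the Pkp1 start lie lower in EN than in CV in most cases, whereas H3K27ac at Cldn15 lies higher in EN.

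Cldn15 gained H3K27ac along the gene while its ATAC changes were mixed. Of its 8 regions, 3 gained and 1 lost ATAC signal between CV and EN. The region 561 bp after the start had ATAC scores of 22, 26, 27 and 25 in CV, 36, 35, 26 and 35 in ENR, and 9, 6, 9 and 6 in EN (log2 change from CV -1.63, SE 0.19, adjusted p = 3.4e-06). H3K27ac of the same region went the other way, from 9, 13 and 19 in CV over 31, 25 and 44 in ENR to 45, 41 and 58 in EN (adjusted p = 0.007). A region centred at -676 bp from the start gained ATAC signal, from 3 to 13 in CV to 25 to 30 in EN. The wide region 2095 bp after the start had H3K27ac scores of 65, 111 and 112 in CV and 213, 216 and 227 in EN, a log2 change of 1.22 (SE 0.24, adjusted p = 0.00089).

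Epcam lost openness at its start while the gene stayed the most abundant junction transcript. The region chr17:88035090-88035394 had ATAC scores of 27, 26, 20 and 38 in CV, 36, 34, 42 and 52 in ENR, and 3, 2, 5 and 5 in EN. EN lay below all other libraries, with a log2 change from CV of -2.62 (SE 0.25, adjusted p = 3.6e-07). H3K27ac there did not pass (adjusted p = 0.98). The adjacent region inside the gene kept ATAC scores of 107 to 143 in EN against 119 to 137 in CV and did not pass.

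Cldn23 opened over its start, at chr8:36888666-36890146, from 181, 189, 136 and 166 in CV over 279, 257, 241 and 232 in ENR to 392, 418, 415 and 414 in EN. The cultures did not overlap, the log2 change from CV to EN was 1.29 (SE 0.097, adjusted p = 2.3e-08), and the order was that of its RNA. Among other starts, ATAC rose at Pkp3, from 35.5 in CV to 59.8 in EN, and at Tjp1, from 72.5 to 112. It fell at Ocln, from 67.8 to 51.0, although Ocln RNA rose. H3K27ac rose without a passing ATAC change at Cldn7, from 126 to 295, at F11r, from 103 to 212, and at Marveld3, from 72.7 to 132.

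For 33 junction genes with a region over a start, Pearson's r between the RNA and the regional log2 change from CV to EN was 0.79 for H3K4me3, 0.684 for H3K27ac, 0.366 for ATAC and 0.065 for H3K27me3. Spearman's rho was 0.536, 0.568, 0.386 and 0.16. Without 2 genes of very few counts, r was 0.775, 0.648, 0.354 and 0.035 over 31 genes. These are descriptions across genes that share libraries, not tests. Cldn2 and Epcam stood away from the rest in ATAC, Cldn2 with a large RNA fall and Epcam with a large ATAC fall. Each gene entered with 1 value per signal, also where it had several start regions. For Cldn15 that value was 0.48 in ATAC and 1.60 in H3K27ac, so it does not stand for the region 561 bp after its start.

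**Figure D5:**
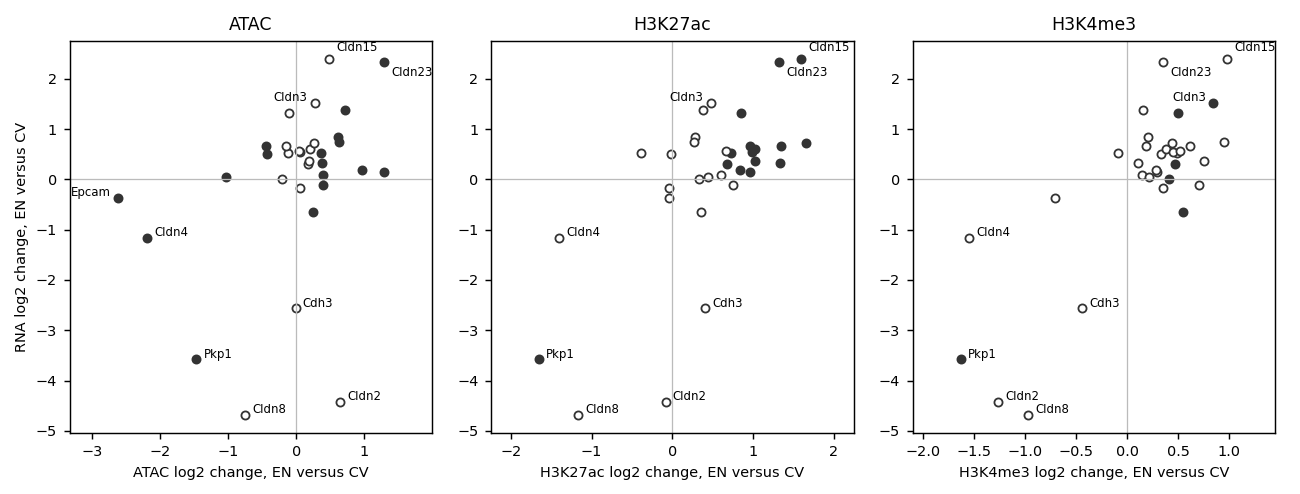
RNA log2 change (y axis) against the log2 change of the region over the gene's start (x axis) in ATAC, H3K27ac and H3K4me3, EN versus CV, for 33 junction genes (filled, region passed an adjusted p of 0.05). Pearson's r is 0.366, 0.684 and 0.79. Cldn2 lies low in RNA at an ATAC change that did not pass, and Cldn8 and Cdh3 rest on few counts.

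Reads of Hnf4g, a nuclear receptor of enterocytes, were counted in 1 library per culture, with 84340 reads in regions in CV, 352600 in ENR and 1816497 in EN, so levels have no replicate check and are given within EN. The 51 regions at junction starts had a median of 86 Hnf4g reads in EN. The median was 31 over all 18086 regions within 500 bp of any annotated start and 4 over the 94469 regions. Reads were compared without regard to the width of a region. The printed Cldn15 region was chosen for its Hnf4g reads and had 234 of them in EN. Per length it stood at the 99.98th percentile of all regions in EN, a rank that describes this choice and tests nothing. The highest counts were 487 reads at the start of Ctnna1 and 480 at that of Jup. The Pkp1 start had 64 reads, the printed Epcam region had 3, and the 8 regions of Cldn2 had 0 to 7.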

How the data were processed

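The authors deposited expected counts per RefSeq transcript that kallisto estimated, beside TPM and mRNA copies per cell scaled to spike-ins. The submitters' processing notes give kallisto 0.43.0. Only transcripts of quantified proteins were in the index. Scores, deposited by the authors for ATAC and the histone marks, are read counts per region of a union of MACS2 peaks (version 2.0 in those notes) that they normalised by a method not given in the sources used here and then rounded. Reads had been aligned with BWA to mm9 and duplicates removed with Picard. The authors deposited Hnf4g values as raw counts per region, with 1 library per culture and no test.

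Cultures and replicate numbers came from the sample labels. Of 66 samples, 12 without a column in the tables, 10 of histone marks and 2 of RNA, were not analysed here. Expected counts were rounded and tested with edgeR 4.0.16 (TMM, quasi-likelihood, 1 fit over 12 libraries) in R 4.3.3, with p-values adjusted by Benjamini-Hochberg over 9288 rows. Scores were tested as log2(score + 1), a pseudocount of 1, with limma 3.58.1 and a trend, for regions above 0 in at least 3 libraries, and fold changes are on that scale. DESeq2 1.42.0 served as an alternative. Families were compared by exact permutation with scipy 1.17.1. Starts and sequences came from GENCODE M1 on NCBIM37, where 36 of 37 symbols were found, all but Cldnd1. Whether region starts count from 0 or 1 is not given in the sources used here. Counting intervals cover counting error only.

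Members and gene lists were chosen with earlier results of these data known. Described library by library were members past 2-fold and an adjusted p of 0.01 in any comparison, and Cdh1, Epcam, Ocln, Tjp1, F11r, Cldn7, Dsp, Jup, Ctnna1 and Ctnnd1. Of other junction genes, those past 4-fold were named. Regions named were chosen from starts of such members that passed and from the largest ATAC changes at their loci, and not all are described. Among those left out, H3K27ac was higher in EN than in CV at starts of Ctnna1, Ctnnd1, Dsp and Jup. H3K4me3 was higher at that of Cldn3. Inside Cdh1, the mean ATAC score of 1 region fell from 58.25 in CV to 18.25 in EN. The regions at Cldn2 and Cldn15 whose sequences are printed, and some starts of other members, were chosen after their values were seen. Tested on simulated data for EN against CV, the RNA test found 100.0% of 200 rows changed 2-fold among 9273. The region tests found 100.0% (ATAC), 97.5% (H3K27ac), 97.0% (H3K4me3) and 35.0% (H3K27me3) of 200 regions changed 4-fold. The changed rows and regions were drawn only from well-covered ones, with a shared spread, so the rates for low counts or scores were not tested. Values of a few genes are not reported here, also in the plots, though the counts over rows include them.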

Additional observations from a re-analysis of the deposited data

Results flagged for a closer look

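A library standing apart from the other 3 of its culture, by its gap as a share of the range, was looked for in 66 RNA groups and 60 ATAC groups of the members and regions described above. Chance marks about 5% of such groups, and 13 were found. In EN replicate 2, Cldnd1 was at 50.1 CPM against 64.2 to 65.9 in the other EN libraries, and Jup at 140.2 CPM against 163 to 167. Marveld3 was at 17.8 CPM in CV replicate 1 against 14.8 to 15.2, and Tjp1 at 88.8 CPM in CV replicate 3 against 94.2 to 95.1. Near the floor, Cdh3 was at 0.384 CPM in ENR replicate 1 and Cldn8 at 0.214 CPM in EN replicate 2, both against 0 in the other libraries.

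Of ATAC scores, the Cldn15 region 561 bp after the start was at 26 in ENR replicate 3 against 35 to 36, and the one at 2095 bp was at 18 in ENR replicate 1 against 12 to 13. The Cldn23 start was at 392 in EN replicate 1 against 414 to 418. The Cldn4 region inside the gene was at 7 in ENR replicate 3 against 6. The Cldn7 start was at 54 in ENR replicate 3 against 76 to 79 and at 63 in EN replicate 2 against 69 to 70. The Marveld3 start was at 46 in EN replicate 3 against 35 to 36. The cause was not tested for any of them.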

How the results depend on the processing

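Of the counts of passing junction rows, EN versus CV gave 16 with spike-in scaling and 10 with a 2-fold minimum in place of 30, EN versus ENR 13 and 7 in place of 28, and CV versus ENR 13 and 4 in place of 27, and 4 on copies per cell. Leaving out 1 library gave 26 to 30, 25 to 29 and 23 to 28. At starts, the ATAC count of 23 became 15 without the trend and 7 at the study's threshold of 1e-05 (20 to 23 without 1 library). The H3K27ac count of 19 became 0 without the trend, 7 with quantile normalisation and 5 at the study's threshold of 0.001 (11 to 18 without 1 library). The H3K4me3 count of 9 became 4 without the trend and 0 at that threshold (3 to 17 without 1 library). The H3K27me3 count stayed 0 under every alternative run. Causes were not tested. Without 1 library, the Cldn2 share of claudin transcripts, EN minus CV, ranged from -28.8 to -28.1 percentage points around -28.3, and the Cldn15 share of claudin transcripts, EN minus CV, from 30.1 to 31.0 around 30.4. These alternatives were chosen after seeing the data. Shallow counts limit Cldn8, Cdh3, Dsg4, Dsg1a and Ctnna2.

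With a replicate block, RNA counts were 29, 29 and 26, the ATAC count 26, and those of H3K27ac and H3K4me3 0 and 1. Deviations of same-numbered libraries correlated with a mean r of 0.0133 in RNA, beside -0.0044 for other pairs. In ATAC the mean was 0.170, with a lowest of 0.0695 and a highest of 0.460, beside a mean of -0.0557 for other pairs. Same-numbered ATAC libraries were thus more alike. The numbers were not taken as pairs in the main tests, so the main ATAC test leaves out this likeness. In ATAC 9 of 12 libraries correlated best with their own number, in RNA 3 of 12.

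Among changes of the genes described library by library that passed the test before or after the alternative, those that changed sign were, with spike-in scaling and between EN and ENR, Cdh1 (-0.23), Cldn4 (-0.20), Cldn7 (-0.022), Ctnna1 (-0.25), the main Ctnnd1 row (-0.34), Jup (-0.13), Ocln (-0.39) and Tjp1 (-0.026), and between EN and CV, Ctnna1 (-0.11) and the main Ctnnd1 row (-0.048). On TPM, Ctnna1 turned between EN and CV (-0.019 with either pseudocount) and Ocln between EN and ENR (-0.022 and -0.021). On copies per cell, Cdh1 (0.65) and Epcam (0.52) turned between EN and CV, and Epcam (0.62) and the minor Ctnnd1 row (0.82) between EN and ENR. Summing rows per symbol turned the minor Ctnnd1 row to 0.29, 0.13 and -0.17 in the 3 comparisons.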

Other observations

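Among junction genes outside the rule, 11 rows changed by at least 4-fold in some comparison (edgeR, adjusted p under 0.01). The largest rise from CV to EN was that of Arhgef2, which encodes GEF-H1, a guanine nucleotide exchange factor held at tight junctions, at 5.50 ± 0.67 CPM in CV, 18.9 ± 1.94 in ENR and 63.5 ± 2.65 in EN (SD, n = 4), a log2 change of 3.53 (SE 0.094). Ybx3, or ZONAB, a transcription factor that binds ZO-1, ran the other way, at 263 ± 13.3 CPM, 187 ± 12.3 and 55.8 ± 10.2, with a log2 change of -2.24 (SE 0.092). Evpl, for envoplakin, a desmosomal plakin best known from stratified epithelia, rose from 5.95 ± 0.90 over 19.6 ± 1.51 to 39.4 ± 5.38 CPM. Ctnnal1, an alpha-catulin gene, was at 44.8, 45.7 and 9.60 CPM, and Cd9, a tetraspanin partner of EpCAM, at 64.3, 41.0 and 13.1 CPM.

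Myh10, a nonmuscle myosin heavy chain, stood at 22.2 to 24.9 CPM in CV, against 0 to 0.256 in ENR and 0.288 to 0.535 in EN, near the floor of 3 counts. Between microvilli, the protocadherins Cdhr2 and Cdhr5 were lowest in ENR, at 606, 345 and 1390 CPM and at 83.9, 54.5 and 230 CPM in CV, ENR and EN. Their log2 changes from ENR to EN were 2.01 (SE 0.040) and 2.07 (SE 0.048). A minor Ush1c row rose from CV to EN by 2.50 (SE 0.52), and the split from its main row is uncertain. Nectin4, an adherens junction nectin, had few counts, with a log2 change from ENR to EN of -2.26.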
